A study of Homo sapiens with 12 samples.

Results

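The liver X receptors and the genes they are best known to drive in sterol efflux were followed through 4 human acute myeloid leukaemia (AML) cell lines under 3 treatments. The set holds 7 of the 57865 genes obtained when the deposited transcript values were summed per gene with GENCODE release 29. The rule gives its members by name: the receptor genes NR1H2 (LXRβ) and NR1H3 (LXRα), and the targets ABCA1, ABCG1, MYLIP, LPCAT3 and SMPDL3A. The lines MV4-11, MOLM-14, KG-1a and OCI-AML3 are established AML lines, and each received 10 µM pioglitazone, 10 µM darglitazone or the vehicle DMSO for 12 h. Every line gave 1 library per treatment, so a line was the replicate (n = 4 per treatment) and no repeat culture of a line was measured. Both drugs are thiazolidinediones, a class known to activate the nuclear receptor PPARγ.

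Liver X receptors are sterol sensors of the nuclear receptor family. They bind DNA as partners of a retinoid X receptor, with oxysterols and the cholesterol precursor desmosterol as ligands, and their classic binding element is a pair of direct hexamer repeats with a short spacer. In macrophages they are known to switch on cholesterol export, to limit lipoprotein uptake and to remodel membrane phospholipids, and PPARγ ligands are known there to raise LXRα and through it ABCA1.

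Libraries held 1.1 to 64.2 M (mega-) estimated counts, a 58.6-fold range. The OCI-AML3 pioglitazone library was the shallowest, and an rRNA-derived entry took 6.17% of its counts and 23.5% of those in the KG-1a pioglitazone library, against at most 0.542% elsewhere. Genes specific to another line were read at a median of under 1% of their home level in 31 of 36 pairs of a library and a source line, and above 2% in 3. In the darglitazone library of KG-1a, 6 genes of MV4-11 had a median of 3.94% of their home level, and in the pioglitazone library of OCI-AML3, 62 genes of KG-1a had 2.05%. Leukocyte and myeloid markers summed to 463 to 2910 TPM (a level per transcript length, relative to the library) in every library, while erythroid markers stayed at or below 1.30 TPM and hepatocyte markers at or below 1.73 TPM. Other lists were not absent. B and T cell markers summed to 30.9 to 57.2 TPM in KG-1a and at most 4.36 TPM in the other lines. Epithelial markers summed to 37.3 to 42.6 TPM in MOLM-14, and at most 14.9 TPM in the other lines. Fibroblast and endothelial markers, PECAM1 among them, summed to 10.2 to 84.5 TPM. The lines were not alike in monocyte and macrophage markers, with summed levels of 47.3 to 111 TPM in MOLM-14, OCI-AML3 and MV4-11 and 2.96 to 9.66 TPM in KG-1a. Values below are in CPM (counts relative to the library total) scaled by the trimmed mean of M values (TMM), unless TPM is named. In bulk RNA, fewer cells that express a gene and less RNA per cell cannot be told apart.

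On the per-length scale, NR1H2 led the set with 38.2 ± 15.1 TPM (mean ± SD, n = 12 libraries), and it was the highest of the 7 genes in 8 of 12 libraries. LPCAT3 followed with 28.1 ± 5.75 TPM, MYLIP with 16.1 ± 6.58 TPM and NR1H3 with 6.65 ± 3.62 TPM. ABCA1 stood at 2.44 ± 2.41 TPM, SMPDL3A at 0.882 ± 1.07 TPM and ABCG1 at 0.504 ± 0.577 TPM. In every library the β receptor was above the α receptor per length, with NR1H2 at 17.4 TPM or more and NR1H3 at 13.0 TPM or less. ABCG1, the transporter that loads sterol onto mature high-density lipoprotein, had at most 2.11 TPM.

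**Figure D1:**
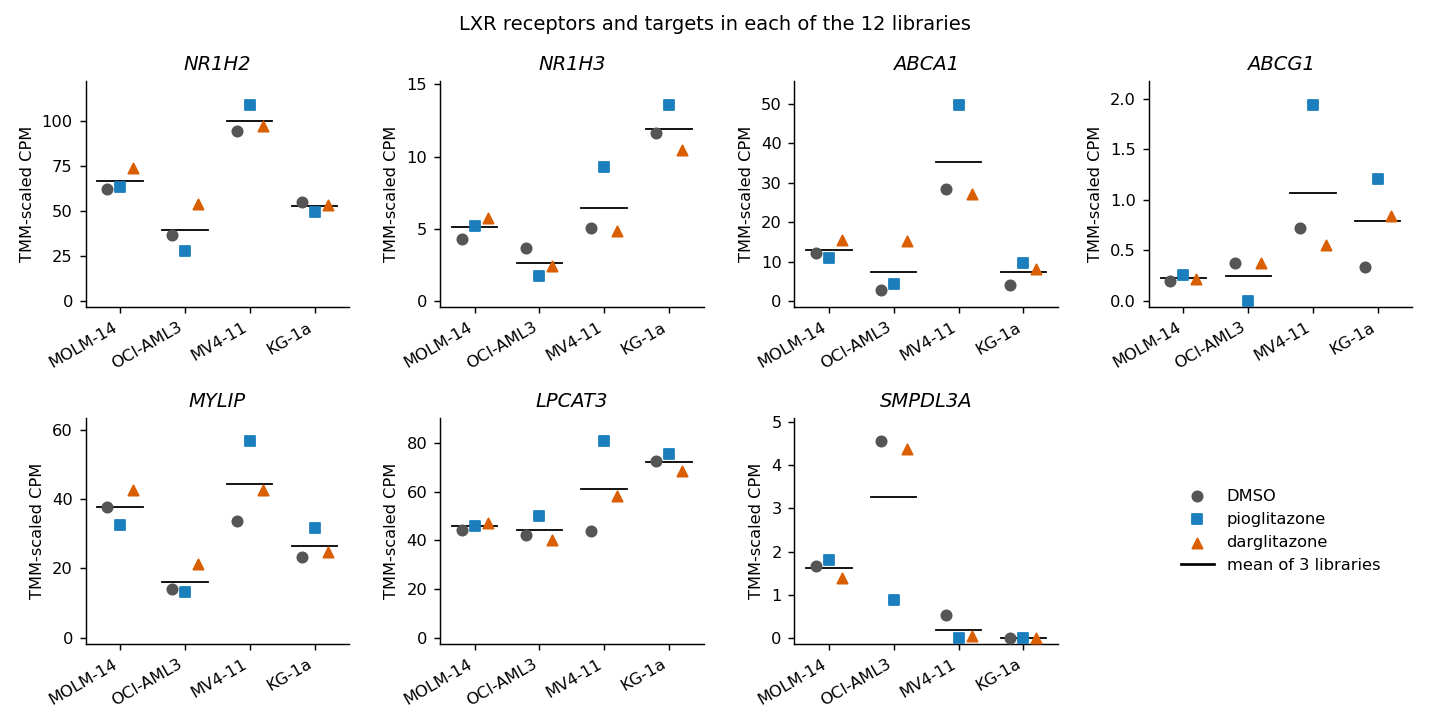
Level of each gene (y axis, TMM-scaled CPM from 0) in the 4 lines (x axis) with DMSO, pioglitazone and darglitazone, 1 point per library, with a line at the mean of the 3 libraries of a cell line. MV4-11 had the highest NR1H2, ABCA1 and MYLIP means, KG-1a the highest NR1H3 and LPCAT3 means, and SMPDL3A was at 0 in all 3 KG-1a libraries.

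NR1H2 encodes LXRβ, the receptor found in most tissues (chromosome 19, 50329653 to 50382982, plus strand, GRCh38). With DMSO its level was 94.6 CPM in MV4-11, 62.2 in MOLM-14, 54.9 in KG-1a and 36.9 in OCI-AML3. With pioglitazone it was 109, 63.3, 49.7 and 28.1 CPM, in that order of lines as for all genes below, and with darglitazone 96.9, 73.8, 53.4 and 53.8 CPM. The 3 treatments overlapped widely while MV4-11 kept apart: each of its libraries was above every library of the other lines, which overlapped in part. The log2 fold change was -0.01 (SE 0.14, n = 4 lines) with pioglitazone, where its sign turned under other scalings, and 0.21 (SE 0.14) with darglitazone. Between lines, MV4-11 was above OCI-AML3 by 1.30 on the log2 scale (SE 0.17, edgeR adjusted p = 2.24e-05), and MOLM-14 above OCI-AML3 as well, with a log2 difference of OCI-AML3 to MOLM-14 of -0.70 (SE 0.17, edgeR adjusted p = 0.00341). KG-1a stood between its neighbours without a call, with an edgeR adjusted p of 0.121 against MOLM-14 and 0.0903 against OCI-AML3.

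NR1H3 encodes LXRα, known from liver, gut, fat and macrophages (chromosome 11, 47248300 to 47269032, plus strand). Its DMSO levels were 5.08 CPM in MV4-11, 4.31 in MOLM-14, 11.7 in KG-1a and 3.68 in OCI-AML3. Pioglitazone libraries had 9.31, 5.23, 13.6 and 1.75 CPM, and darglitazone libraries 4.88, 5.77, 10.5 and 2.42 CPM. The 3 KG-1a libraries lay above all 9 others, and no treatment stood apart from DMSO. The OCI-AML3 pioglitazone value rests on 2 counts. The mean was 4.55-fold higher in KG-1a than in OCI-AML3, a log2 difference of 1.96 (SE 0.37, edgeR adjusted p = 0.000629), and KG-1a also passed against MOLM-14 (1.22, SE 0.35, edgeR adjusted p = 0.0103) and MV4-11 (0.93, SE 0.35, edgeR adjusted p = 0.0418). MV4-11 and MOLM-14 did not differ beyond their spread (edgeR adjusted p = 0.530), nor did MOLM-14 and OCI-AML3 (0.120). The line with the highest NR1H3 was the line with the lowest summed monocyte and macrophage markers, whose part in the difference was not tested. Without the MOLM-14 pioglitazone library the number of line pairs called for NR1H3 went from 4 (34% of all genes had at least 4) to 1, and it was 2 without the MOLM-14 DMSO, MV4-11 darglitazone, KG-1a DMSO or KG-1a pioglitazone library.

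The receptor genes also differed in which transcripts their counts were assigned to. Of the NR1H2 counts, 81.8% went to NR1H2-201 and 95.2% to protein-coding transcripts (mean of the 4 lines' shares). NR1H3 has 34 annotated transcripts, and its counts spread over 31 of them. Protein-coding transcripts held 54.5% of them and transcripts with a retained intron 35.1%, from 24.6% in OCI-AML3 to 45.6% in MOLM-14. Transcripts that start between 47248916 and 47248956 held 58.1% of the NR1H3 counts, and those that start between 47257604 and 47258106 held 20.9%. NR1H3-201 alone had 19.1% of all NR1H3 counts and 33.9% of those on coding transcripts. Such shares are estimates of how reads were divided, and the libraries were made from total RNA. NR1H3 overlaps ACP2 on the opposite strand (at most 24.6 CPM) and NR1H2 overlaps the pseudogene NAPSB (at most 33.0 CPM); the sources used here do not say whether counting used the strand, so reads from these pairs cannot be told apart.

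**Figure D2:**
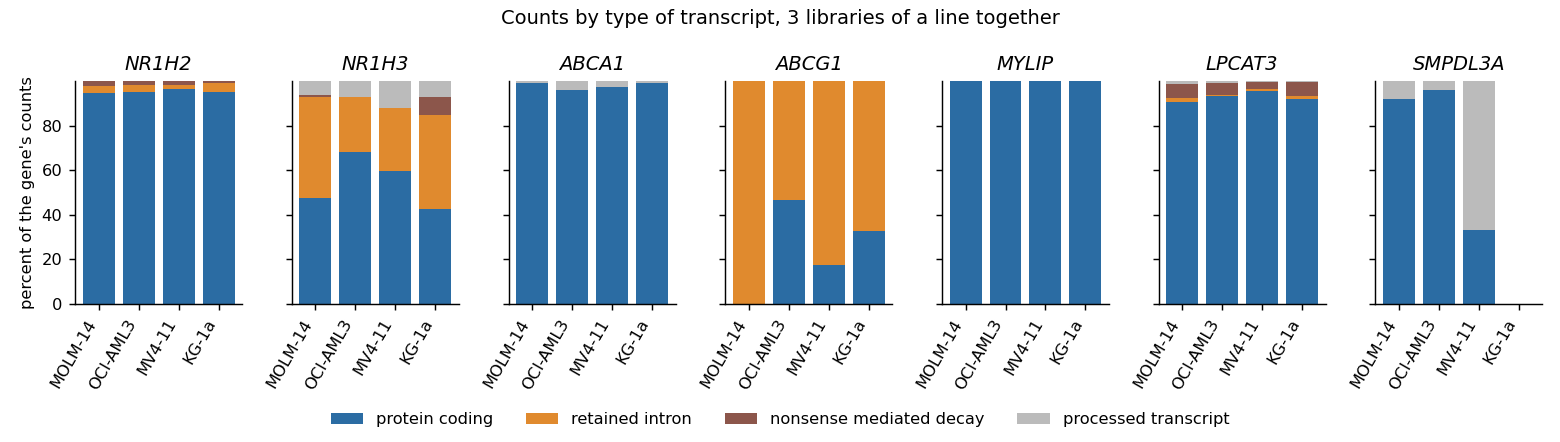
Share of each gene's counts (y axis, percent from 0) on protein-coding, retained-intron, nonsense-mediated-decay and processed transcripts in each line (x axis), the 3 libraries of a line together. NR1H3 and ABCG1 had large retained-intron shares, the other genes mostly coding transcripts; the SMPDL3A bar of MV4-11 rests on 6 counts and KG-1a had none.

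ABCA1, the transporter that hands cholesterol to lipid-poor apolipoprotein A-I (chromosome 9, 104781002 to 104928237, minus strand), had the largest positive fold change of the 6 genes tested with each drug. DMSO libraries had 28.4 CPM in MV4-11, 12.3 in MOLM-14, 4.07 in KG-1a and 2.81 in OCI-AML3. Pioglitazone libraries had 49.8, 11.0, 9.57 and 4.39 CPM. Darglitazone libraries had 27.2, 15.6, 8.17 and 15.3 CPM. The treatments overlapped, since MV4-11 was highest under each of them. On the CPM scale each drug was above DMSO in 3 of 4 lines, a different 3 for each drug. Pioglitazone was lower in MOLM-14 and darglitazone slightly lower in MV4-11. Per length these sides turned: MOLM-14 had 1.24 TPM with DMSO and 1.83 with pioglitazone, and MV4-11 3.22 with DMSO and 4.10 with darglitazone. KG-1a turned as well, with 0.805 TPM with DMSO and 0.789 with darglitazone. The remaining pairs of line and drug kept their side. In MOLM-14 the transcript ABCA1-202, of 10494 bases, held 100% of the gene's counts with DMSO and 92.2% with pioglitazone. Its share was 100% and 96.0% in MV4-11 with DMSO and darglitazone, and 91.2% and 100% in KG-1a. The other ABCA1 transcripts have 807 to 1540 bases, and a count on a short transcript weighs more in TPM.

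Over the lines, ABCA1 had a log2 fold change of 0.74 with pioglitazone (SE 0.41, 95% confidence interval -0.17 to 1.64, edgeR adjusted p = 0.894). With darglitazone it was 0.93 (SE 0.41, 0.03 to 1.83, edgeR adjusted p = 1), and with the 2 drugs together 0.83 (SE 0.35, 0.05 to 1.62, edgeR adjusted p = 0.988). None passed over all genes. Without the OCI-AML3 darglitazone library the darglitazone value was 0.34, and without the OCI-AML3 DMSO library 0.47. The pioglitazone value was 0.46 without the MV4-11 pioglitazone library or without the OCI-AML3 DMSO library.

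Within single lines, where a ratio of 2 libraries has no replicate check and its interval covers counting error only, ABCA1 had the highest ratio whose interval lay above 1. In OCI-AML3 it went from 188 counts with DMSO to 321 with darglitazone in a shallower library, a ratio of 5.43 (95% counting interval 4.52 to 6.53). In KG-1a the ratio was 2.35 with pioglitazone (1.59 to 3.55) and 2.0 with darglitazone (1.24 to 3.25). These intervals do not cover the scaling: the TMM factor of the KG-1a pioglitazone library was 0.758, the smallest of all. Before TMM scaling ABCA1 had 4.13 CPM in KG-1a with DMSO and 7.25 with pioglitazone. The library totals behind those values held 23.5% rRNA-derived counts with pioglitazone and 0.145% with DMSO. Per length KG-1a had 0.805 TPM with DMSO, 0.964 with pioglitazone and 0.789 with darglitazone, so the size of the ratio depended on the scale. In MV4-11 it was 1.75 with pioglitazone (1.5 to 2.05) and 0.959 with darglitazone (0.837 to 1.1). In MOLM-14 it was 0.893 (0.758 to 1.05) and 1.27 (1.04 to 1.54). The OCI-AML3 pioglitazone ratio of 1.56 rests on 5 counts (0.501 to 3.71). Log2 ratios of at least 1 with darglitazone were found for 7.23% of all genes tested in OCI-AML3, and with pioglitazone for 8.22% in KG-1a. Removing the estimated reads of other lines took 18.8% of the ABCA1 counts in the KG-1a darglitazone library and 7.18% in KG-1a DMSO. Relative to the counts then left in each library, and before TMM scaling, the level went from 8.18 to 6.98 CPM and from 4.13 to 3.88 CPM. The summed monocyte and macrophage markers were 89.4 TPM in OCI-AML3 with DMSO and 111 with darglitazone, and their part in the ABCA1 ratio was not tested.

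Between lines, MV4-11 exceeded each of the other lines in ABCA1: by 1.41 over MOLM-14 (SE 0.44, edgeR adjusted p = 0.0249) and by 2.26 over OCI-AML3 (SE 0.49, edgeR adjusted p = 0.00364), while KG-1a against MV4-11 was -2.33 (SE 0.48, edgeR adjusted p = 0.00250). MOLM-14, OCI-AML3 and KG-1a were not separated from each other, with edgeR adjusted p from 0.145 to 0.937. Without the OCI-AML3 darglitazone library, 5 of the 6 pairs of lines passed.

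The ABCA1 promoter is shown because it is the promoter of the set that holds a near match to the LXR element. RefSeq promoter entries (GRCh38.p14, 250 bases before to 50 after a start site) were at hand for 5 of the 7 genes, 8 entries in all; those of ABCG1 and SMPDL3A were not analysed here. They were searched on both strands for the DR4 element, the hexamer AGGTCA repeated directly after a spacer of 4 bases of any kind, allowing 3 mismatches in its 12 fixed letters. The ABCA1 window had 1 match with 2 mismatches, 69 to 54 bases before the start, in the reverse orientation. Windows with at most 2 mismatches made up 2.34% of 35116 promoters, and with at most 3 mismatches 18.6%. No DR4 match was in the other 7 windows. The PPAR element DR1, the same hexamers with a spacer of 1 base, with 3 mismatches was in the ABCA1, LPCAT3 and 1 of the 4 NR1H3 windows, against 20.9% of all promoters; in ABCA1 it overlaps the DR4 match. A match is a description of letters, not of binding. The ABCA1 window lies at chr9:104928106-104928405, the NR1H3 window nearest the main start cluster at chr11:47248645-47248944, MYLIP at chr6:16128836-16129135 and LPCAT3 at chr12:7018427-7018726. They are printed in gene orientation, 5′ to 3′, with the DR4 match in capitals; ABCA1 and LPCAT3 lie on the minus strand.
ABCA1: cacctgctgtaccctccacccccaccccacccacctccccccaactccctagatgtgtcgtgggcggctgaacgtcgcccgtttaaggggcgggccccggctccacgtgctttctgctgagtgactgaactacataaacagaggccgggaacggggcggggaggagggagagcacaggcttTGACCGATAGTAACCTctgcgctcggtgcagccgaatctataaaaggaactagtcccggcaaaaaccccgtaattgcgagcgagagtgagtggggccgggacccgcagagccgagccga
NR1H3: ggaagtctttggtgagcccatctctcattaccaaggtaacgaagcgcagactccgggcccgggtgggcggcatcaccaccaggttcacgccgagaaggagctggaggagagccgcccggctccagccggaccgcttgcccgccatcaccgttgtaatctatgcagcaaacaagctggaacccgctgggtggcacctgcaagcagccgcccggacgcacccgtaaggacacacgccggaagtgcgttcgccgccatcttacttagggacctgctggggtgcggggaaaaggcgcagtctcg
MYLIP: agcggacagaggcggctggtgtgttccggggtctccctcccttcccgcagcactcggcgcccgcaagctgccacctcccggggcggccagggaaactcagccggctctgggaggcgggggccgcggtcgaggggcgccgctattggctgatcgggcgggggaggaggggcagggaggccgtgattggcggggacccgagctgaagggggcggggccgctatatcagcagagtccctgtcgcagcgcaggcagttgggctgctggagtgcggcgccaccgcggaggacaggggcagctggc
LPCAT3: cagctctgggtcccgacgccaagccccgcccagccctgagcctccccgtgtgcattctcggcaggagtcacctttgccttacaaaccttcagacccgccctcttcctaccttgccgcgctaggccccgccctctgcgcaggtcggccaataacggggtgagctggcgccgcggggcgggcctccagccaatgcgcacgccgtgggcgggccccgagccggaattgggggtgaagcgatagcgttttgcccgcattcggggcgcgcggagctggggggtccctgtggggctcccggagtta

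ABCG1 (chromosome 21, 42199689 to 42297244, plus strand) never exceeded 25 counts per library and was removed by the filter on low counts, so it has no test among the 15424 genes. Its levels with DMSO were 0.73 CPM in MV4-11, 0.20 in MOLM-14, 0.34 in KG-1a and 0.37 in OCI-AML3. Pioglitazone libraries had 1.94, 0.26, 1.21 and 0.00 CPM, and darglitazone libraries 0.55, 0.21, 0.84 and 0.38 CPM. The MV4-11 pioglitazone library was highest, with 15 counts against 7 with DMSO, a ratio of 2.67 (95% counting interval 1.03 to 7.75). In KG-1a it went from 3 to 12 counts, a ratio of 3.56 whose interval of 0.961 to 19.7 includes 1. A fit without the filter gave a log2 fold change of 0.87 (SE 0.93) with pioglitazone and 0.10 (SE 0.91) with darglitazone. Of the ABCG1 counts, 75.9% went to transcripts with a retained intron, and in MOLM-14 all 14 counts did.

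MYLIP, also called IDOL, is the ubiquitin ligase that sends lipoprotein receptors to the lysosome (chromosome 6, 16129125 to 16148248, plus strand). DMSO libraries had 33.8 CPM in MV4-11, 37.8 in MOLM-14, 23.2 in KG-1a and 14.1 in OCI-AML3. Pioglitazone libraries had 56.7, 32.7, 31.5 and 13.2 CPM, and darglitazone libraries 42.7, 42.8, 24.7 and 21.3 CPM. Treatments overlapped, and darglitazone was above DMSO in 4 of 4 lines by 0.09 to 0.59 on the log2 scale, a pattern shared by 7.09% of all genes tested. The log2 fold changes of 0.30 (SE 0.18, edgeR adjusted p = 0.909) with pioglitazone and 0.31 (SE 0.18, edgeR adjusted p = 1) with darglitazone did not pass. With counts thinned to the smallest library the MYLIP value with darglitazone was 0.04, and it was 0.16 without the OCI-AML3 darglitazone library; with pioglitazone it was 0.12 without the MV4-11 pioglitazone library and 0.47 without that of MOLM-14. OCI-AML3 had less MYLIP than each other line: the log2 difference to MOLM-14 was -1.15 (SE 0.21, edgeR adjusted p = 0.000489), MV4-11 was above it by 1.36 (SE 0.22, edgeR adjusted p = 0.000135) and KG-1a by 0.64 (SE 0.22, edgeR adjusted p = 0.0285). MV4-11 and MOLM-14 were not separated (edgeR adjusted p = 0.435). Its counts were divided between 2 coding transcripts, MYLIP-202 with 52.7% and MYLIP-201 with 47.3%.

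LRP8 and VLDLR encode lipoprotein receptors that MYLIP is known to mark for degradation. LRP8 had a log2 fold change of 0.45 with pioglitazone (SE 0.19) and 0.30 with darglitazone (SE 0.19), and VLDLR 0.30 (SE 0.33) and 0.35 (SE 0.32). Both were on the positive side, as MYLIP was, and neither passed over all genes by edgeR.

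LPCAT3 encodes the acyltransferase that puts polyunsaturated chains into membrane phospholipids (chromosome 12, 6976186 to 7018510, minus strand). DMSO libraries had 43.9 CPM in MV4-11, 44.1 in MOLM-14, 72.6 in KG-1a and 42.1 in OCI-AML3. Pioglitazone libraries had 80.6, 46.0, 75.4 and 50.01 CPM, and darglitazone libraries 58.0, 47.0, 68.3 and 40.1 CPM. With DMSO KG-1a stood alone at the top, and with pioglitazone MV4-11 came to its level. Pioglitazone was above DMSO in 4 of 4 lines, by 0.05 to 0.87 on the log2 scale, where 5.98% of all genes were. Only in MV4-11 did the 95% counting interval lie above 1. The ratio was 1.04 in MOLM-14 (0.962 to 1.13), 1.04 in KG-1a (0.933 to 1.16) and 1.19 in OCI-AML3 (0.897 to 1.54, on 57 counts). The side in KG-1a depended on the scaling: before TMM it went from 73.7 CPM with DMSO to 57.1 with pioglitazone, and per length from 33.7 to 30.7 TPM. Both of these scales divide by a library sum that includes the rRNA-derived entry, 23.5% of counts with pioglitazone and 0.145% with DMSO. Its part in the turned side was not tested. The log2 fold change was 0.30 (SE 0.14, 95% confidence interval from just under 0 to 0.61, edgeR adjusted p = 0.838) with pioglitazone and 0.07 (SE 0.14, -0.23 to 0.37, edgeR adjusted p = 1) with darglitazone. Without the MV4-11 DMSO library the pioglitazone value was 0.15. KG-1a was above MOLM-14 by 0.66 (SE 0.16, edgeR adjusted p = 0.00393) and above OCI-AML3 by 0.72 (SE 0.17, edgeR adjusted p = 0.00266), MV4-11 was above OCI-AML3 by 0.45 (SE 0.17, edgeR adjusted p = 0.0411), and KG-1a and MV4-11 were not separated (0.189). LPCAT3-201 held 92.8% of its counts, and the gene overlaps EMG1 on the opposite strand (at most 89.0 CPM).

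SMPDL3A, a secreted phosphodiesterase first named for its likeness to acid sphingomyelinase (chromosome 6, 122789049 to 122809720, plus strand), was not found in every line. DMSO libraries had 0.52 CPM in MV4-11, 1.66 in MOLM-14, 0 in KG-1a and 4.56 in OCI-AML3. Pioglitazone libraries had 0, 1.80, 0 and 0.88 CPM, and darglitazone libraries 0.03, 1.39, 0 and 4.37 CPM. The OCI-AML3 pioglitazone value is 1 count. Over the 3 libraries of a line, OCI-AML3 had 398 counts, MOLM-14 105, MV4-11 6 and KG-1a 0. Against a floor of 3 counts over the KG-1a libraries together, the pooled level was at least 35.1-fold higher in OCI-AML3 and at least 13.1-fold higher in MOLM-14; these bounds were 20.3 and 7.58 without the KG-1a pioglitazone library, and 21.9 and 8.18 without that with DMSO. OCI-AML3 exceeded MV4-11 37.3-fold (95% counting interval 17.0 to 102). That ratio was 15.5 (6.6 to 48.1) without the MV4-11 darglitazone library and 181 (32.3 to 7164) without the MV4-11 DMSO library, which held 5 of the 6 counts. Both OCI-AML3 and MOLM-14 passed against each of the others, with edgeR adjusted p from 0.000826 to 0.00951, and they were not separated from each other (0.368). SMPDL3A passed the filter on low counts only through OCI-AML3 and MOLM-14, where it is high. Its p-values against the other lines are therefore no independent support for the difference. With counts thinned to the smallest library, the number of line pairs called for SMPDL3A went from 4 to 1. In MV4-11 there were 5 counts with DMSO and 1 with darglitazone, a ratio of 0.0589 (0.00124 to 0.526). In that DMSO library 2.19% of the MOLM-14 level and 1.55% of the OCI-AML3 level of line-specific genes were found. The SMPDL3A log2 fold changes of -1.14 (SE 0.93) with pioglitazone and -0.82 (SE 0.81) with darglitazone did not pass. They were -0.43 and -0.22 with limma-voom and -0.32 and -0.69 with thinned counts. Leaving out 1 library at a time gave -3.08 (without MOLM-14 pioglitazone) to -0.58 (without MV4-11 DMSO) with pioglitazone, and -1.78 (without OCI-AML3 darglitazone) to -0.10 (without MV4-11 DMSO) with darglitazone.

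**Figure D3:**
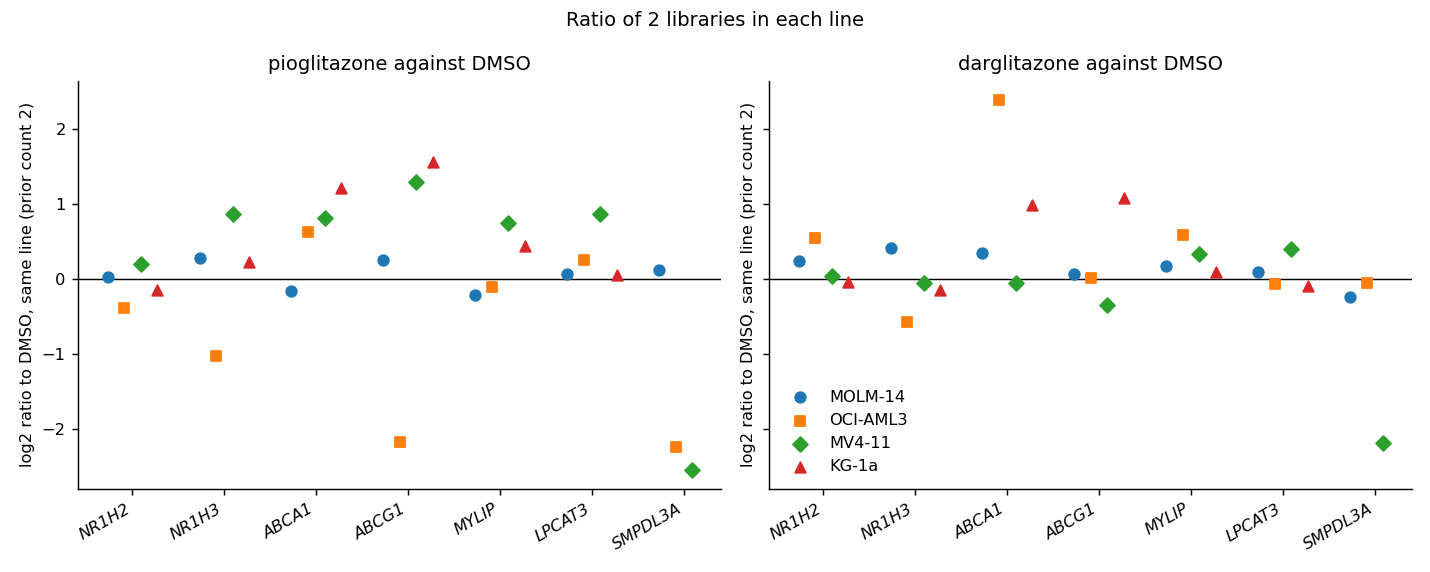
Log2 ratio of each drug library to the DMSO library of the same line (y axis, prior count of 2) for the 7 genes (x axis), 1 point per line. ABCA1 in OCI-AML3 with darglitazone had the highest ratio, and in MV4-11 with pioglitazone 6 of 7 genes lay above 0; the points for ABCG1 in OCI-AML3 and SMPDL3A in MV4-11 with pioglitazone have 0 counts with the drug, and SMPDL3A of KG-1a has none in any library.

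In MV4-11 with pioglitazone NR1H2, NR1H3, ABCA1, ABCG1, MYLIP and LPCAT3 were higher than with DMSO, each with a 95% counting interval above 1. Of all 15424 genes tested, 18.4% had such an interval in that pair of libraries; the median log2 ratio of the 7 genes was 0.81. The ratio was 1.15 for NR1H2 (1.05 to 1.27), 1.83 for NR1H3 (1.26 to 2.69), 1.68 for MYLIP (1.45 to 1.94) and 1.83 for LPCAT3 (1.62 to 2.08). With darglitazone the same line had 2 genes with an interval above 1 (21.3% of all genes), MYLIP (1.26) and LPCAT3 (1.32), and a median log2 ratio of -0.06. In OCI-AML3 with darglitazone ABCA1, MYLIP (1.51, 1.34 to 1.69) and NR1H2 (1.46, 1.36 to 1.57) had intervals above 1 (31.8% of all genes) while NR1H3 had 0.659 (0.478 to 0.894). The median was 0.06 in MOLM-14 with pioglitazone and 0.18 with darglitazone. These ratios compare single libraries. The interaction of line and drug tested whether the mean response to both drugs differed between lines. It cannot decide whether lines differed with 1 drug alone, since it took both drugs together. In this test edgeR called 0 of the 6 genes tested, each with an adjusted p of 1, and 0 had an unadjusted p under 0.05. By that test 0.00648% of all genes passed, and 3.05% had an unadjusted p under 0.05.

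Over the lines, edgeR's quasi-likelihood test with Benjamini-Hochberg adjustment called 0 of the 6 genes tested with pioglitazone, as it called 0% of all 15424 genes. At an unadjusted p under 0.05 it had 0 of the 6, against 5.96% of all genes. With darglitazone the counts were 0 called (0% of all genes) and 1 of 6 unadjusted (ABCA1, against 3.4%), and with both drugs together 0 called (0%) and 1 of 6 unadjusted (again ABCA1, 4.86%). limma-voom called 0 of the 6 too (0% of all genes). DESeq2 gave an adjusted p only to NR1H2 with pioglitazone, to all 6 with darglitazone and to none with both drugs, and called 0 of these, where it called 2.58%, 0.0389% and 1.4% of the genes it gave one. Fold changes were positive for 4 of 6 genes with each drug, with medians of 0.28 for pioglitazone and 0.14 for darglitazone, beside -0.02 and 0.01 for all genes tested, of which 46.5% and 51% were positive. Both comparisons use the same DMSO libraries.

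**Figure D4:**
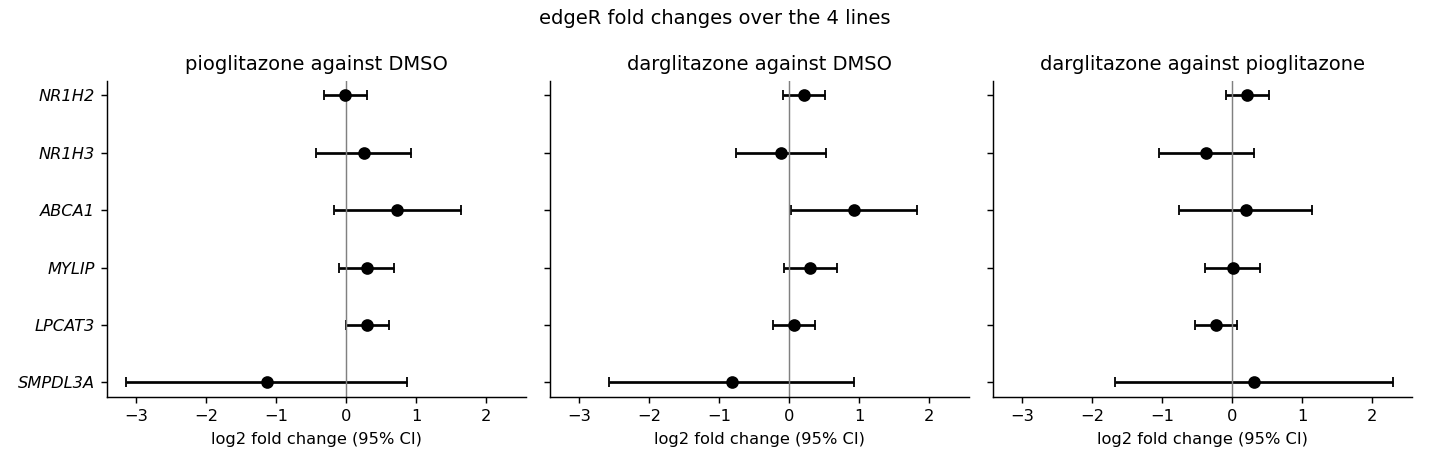
Log2 fold change over the 4 lines (x axis, point) with its 95% confidence interval (bar) from edgeR for the 6 genes tested, with each drug against DMSO and for darglitazone against pioglitazone. The interval of ABCA1 with darglitazone lies just above 0 (0.03 to 1.83), and all intervals between the drugs include 0.

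Pioglitazone and darglitazone were compared directly at the same dose and time. Called genes were 0 of 6 (0% of all genes) by edgeR and 0 of the 2 that DESeq2 gave an adjusted p, NR1H2 and LPCAT3 (0.347% of such genes), and 0 of 6 had an unadjusted p under 0.05 (3.51% of all genes). The log2 difference, darglitazone against pioglitazone, was 0.22 for NR1H2 (95% confidence interval -0.09 to 0.53), -0.37 for NR1H3 (-1.04 to 0.31) and 0.19 for ABCA1 (-0.76 to 1.14). It was 0.01 for MYLIP (-0.39 to 0.40), -0.23 for LPCAT3 (-0.54 to 0.07) and 0.31 for SMPDL3A (-1.68 to 2.31). The intervals do not show that the drugs act alike: for ABCA1 a difference of more than 1 on the log2 scale lies within the interval, while those of MYLIP and LPCAT3 run from -0.54 to 0.40 at the widest. The values of ABCA1, MYLIP and SMPDL3A turned negative in this contrast when some single libraries were left out.

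Differences between lines passed the test where those between treatments did not. Of 36 tests (6 genes, 6 pairs of lines, adjusted over all genes and pairs together), 22 passed by edgeR, where 44% of all such tests did. Each of the 6 genes had at least 3 of its 6 pairs called, as 59.8% of all genes had, and NR1H2, NR1H3, MYLIP and SMPDL3A had 4, as 34% of all genes had at least. SMPDL3A entered the test only through OCI-AML3 and MOLM-14, where it is high, so its 4 calls add no independent support. By pair, 6 of 6 genes were called between MV4-11 and OCI-AML3 (41.3% of all genes), 4 of 6 between KG-1a and OCI-AML3 (50.5%) and 4 of 6 between KG-1a and MV4-11 (46.9%). There were 3 of 6 between MV4-11 and MOLM-14 (38.3%), 3 of 6 between KG-1a and MOLM-14 (51.4%) and 2 of 6 between OCI-AML3 and MOLM-14 (35.4%). The order of the lines differed between genes: MV4-11 was highest for NR1H2, ABCA1 and MYLIP, KG-1a for NR1H3 and LPCAT3, and OCI-AML3 for SMPDL3A.

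Other parts of the pathway were read from lists chosen beside the set. Of 22 further LXR targets 12 were tested, and with pioglitazone 7 were positive and 5 negative with 0 called by edgeR (0% of all genes) and 2 by DESeq2 (2.58% of the genes it gave an adjusted p). An unadjusted edgeR p under 0.05 was found for 3, all positive, against 5.96% of all genes. For SREBF1, the regulator that LXR is known to induce, the log2 fold change was 0.35 (SE 0.14), for FASN, which makes palmitate, 0.73 (SE 0.18), and for SCD, which desaturates fatty acids, 1.0 (SE 0.15). With darglitazone SCD had 0.19 (SE 0.15), FASN 0.27 (SE 0.18) and SREBF1 0.14 (SE 0.14), with 9 of 12 positive and 0 called by edgeR or DESeq2. These lipid synthesis genes are also known SREBP targets. APOE, the apolipoprotein that LXR drives in macrophages, reached no more than 16 counts per library, ABCG5 5 and ABCG8 29, so these targets could not be tested.

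Among 18 partners and coregulators, 16 were tested, with 9 positive and 7 negative with pioglitazone, 10 and 6 with darglitazone, and 0 called. The coactivator gene NCOA1 had 0.39 (SE 0.20) with pioglitazone and 0.24 (SE 0.19) with darglitazone, NCOA3 0.26 (SE 0.13) and 0.20 (SE 0.13), and the acetyltransferase gene EP300 0.13 (SE 0.12) and 0.12 (SE 0.11). The receptor partner RXRG had no counts. PPARG, the receptor the drugs are known for, reached no more than 91 counts per library and was not tested.

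Genes of enzymes that make or use up LXR ligands had higher values with pioglitazone than with darglitazone. Of 13 genes for oxysterol and desmosterol metabolism 7 were tested; with pioglitazone 5 were positive, 4 of them with an unadjusted p under 0.05, and the median was 0.53. Over all genes 46.5% were positive and 5.96% had such a p. CYP51A1, a sterol demethylase, had 0.71 (SE 0.14), and SC5D, a sterol desaturase, 0.60 (SE 0.26). With darglitazone the median was 0.06, and all 7 had a lower value with darglitazone than with pioglitazone. None was called by edgeR, and DESeq2 called 3 with pioglitazone (2.58% of the genes it gave an adjusted p). CYP27A1, which makes an oxysterol ligand, reached no more than 10 counts per library, and CH25H had none.

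Targets of SREBP2, the factor that acts when sterol is low and so in the opposite state to LXR, lay on one side with pioglitazone. All 10 tested of 11 listed were positive, each with an unadjusted p under 0.05 (5.96% of all genes, both directions), with a median of 0.75. HMGCS1 had 1.39 (SE 0.24), INSIG1 1.02 (SE 0.20) and FDFT1 0.69 (SE 0.12). With darglitazone 9 of 10 were positive, 1 with an unadjusted p under 0.05, and the median was 0.21. edgeR called 0 and DESeq2 8 with pioglitazone, where DESeq2 called 2.58% of the genes it gave an adjusted p. STARD4 is in this list and in another one as well.

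Sterol transport and storage genes outside the set showed no common side, with 7 of 15 positive with pioglitazone and 6 of 15 with darglitazone, 0 called. ABCA7, a relative of ABCA1, had 0.18 (SE 0.14) and 0.31 (SE 0.13), STARD4, a cytosolic sterol carrier, 0.70 (SE 0.20) and -0.02 (SE 0.20), and GRAMD1B, which moves sterol from the plasma membrane, -0.35 (SE 0.20) and -0.28 (SE 0.19). Of 11 relatives of LPCAT3 and SMPDL3A, all tested, 6 were positive with pioglitazone and 5 with darglitazone, 0 called. SMPD4 had -0.31 (SE 0.14) with pioglitazone and -0.18 (SE 0.13) with darglitazone, MBOAT7 0.25 (SE 0.18) and 0.30 (SE 0.17), and SMPD1 0.19 (SE 0.26) and 0.56 (SE 0.25).

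**Figure D5:**
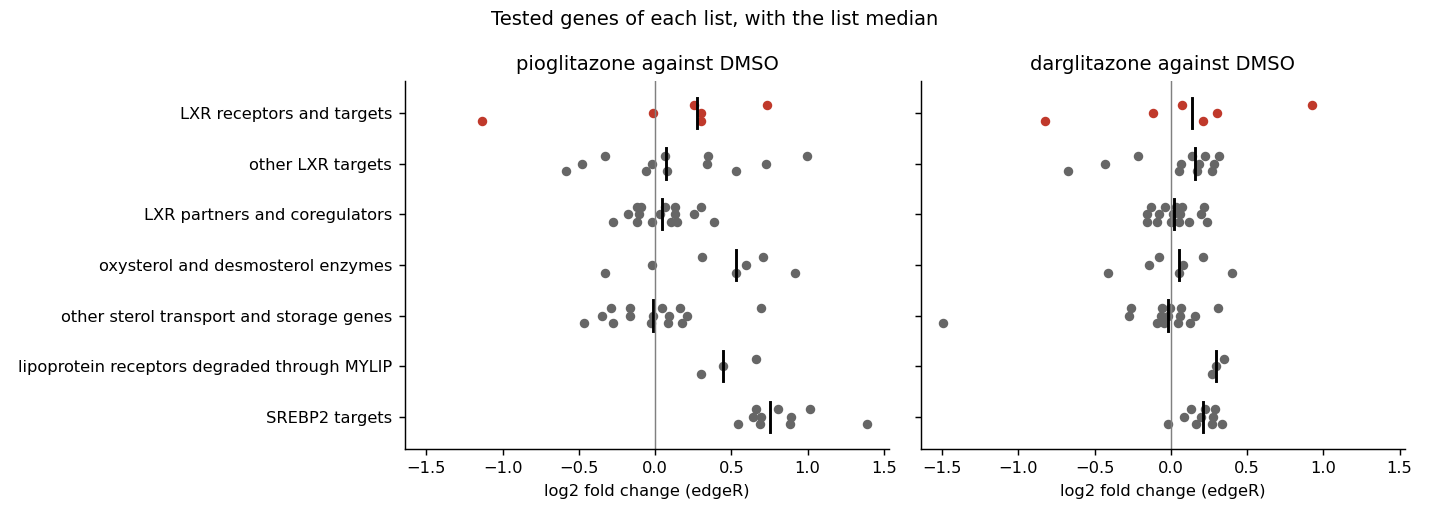
Log2 fold change from edgeR (x axis) of each tested gene of each list, the set itself in red, with the list median as a black bar, for each drug against DMSO. The SREBP2 targets all lie above 0 with pioglitazone (median 0.75), while the set spreads from -1.14 (SMPDL3A) to 0.74 (ABCA1).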

How the data were processed

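Total RNA of 12 samples went into a stranded kit with removal of ribosomal RNA, per the labels' protocols. The authors deposited unnormalized estimated counts for single transcripts; among nonzero values 89.8% were fractional (tolerance 1e-06). The submitters' processing notes name the GRCh38 build and, in no stated order, DESeq2, STAR, fastp, featureCounts and FastQC. The tool that estimated the counts, its strand setting and all versions are not given in the sources used here.

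Of 203027 transcripts, 202941 matched GENCODE release 29 without version numbers; the 86 others held at most 0.0169% of a library. Estimated counts were summed per gene and rounded. TPM divides each transcript's count by its length. Genes were filtered with filterByExpr (edgeR 4.0.16), with lines as groups, a minimum count of 10 and a minimum total of 15, leaving 15424 genes. edgeR's robust quasi-likelihood test was fitted to all 12 libraries with TMM scaling and terms for cell line and treatment (6 residual degrees of freedom). The same model gave the 6 pairs of lines, adjusted over genes and pairs together. A further model tested the interaction of line and drug, with either drug set against DMSO (3 residual degrees of freedom). Benjamini-Hochberg adjustment was used with a threshold of 0.05. DESeq2 1.42.0, limma-voom (limma 3.58.1), other scalings and filters, thinned counts and left-out libraries were alternatives, in R 4.3.3. The edgeR script was tested on simulated data.

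The line pairs the libraries by design, since the 3 treatments of a line share it. P-values weigh only the spread between these 12 libraries and say nothing beyond these lines. Reads of other lines were estimated from genes with at least 30 CPM in the source line, at most 5% of that elsewhere, and under 1% in at least the lowest of the receiving line's libraries. Counting intervals are exact, at 95%, and like the floor of 3 counts cover counting error only; that floor is 0.0467 CPM in the deepest library and 2.74 CPM in the shallowest. The members and all lists were chosen with earlier results of these data known. The rule for named genes took all 7 members and, from each list, genes called over all genes or else up to 3 with the smallest p in the comparison of both drugs with DMSO; further genes are named where they were absent or too low to test. Some genes of the lists are not reported by name here.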

Additional observations from a re-analysis of the deposited data

Results flagged for a closer look

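In 2 of the 21 groups examined (7 genes with 3 treatments, 4 libraries each) the highest library stood far from the rest, its gap to the next over 0.829 of the whole range, which chance alone gives in about 1 of 20 groups. ABCA1 with pioglitazone was 49.8 CPM in MV4-11 against 11.0 CPM in the next line, a gap of 0.855 of the range. MV4-11 also had the highest ABCA1 level with DMSO and with darglitazone. LPCAT3 with DMSO was 72.6 CPM in KG-1a against 44.1 CPM in the next line, a gap of 0.934 of the range. The KG-1a levels of LPCAT3 with the drugs, 75.4 and 68.3 CPM, were close to that value.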

How the results depend on the processing

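In every treatment comparison 0 members were called under each alternative run, and between lines 18 to 24 of the 36 tests passed against 22. Signs turned only for values smaller in size than their SE in the main fit, also in genes with many counts such as MYLIP and ABCA1. NR1H2 with pioglitazone was 0.0138 with DESeq2, 0.0107 with its size factors, 0.0731 with limma-voom, 0.0161 without the replicate block of cell line, 0.0960 with counts thinned to the smallest library, and 0.161 without the pioglitazone libraries of KG-1a and OCI-AML3. LPCAT3 with darglitazone was -0.0490 when thinned. For darglitazone against pioglitazone MYLIP was -0.003195 with DESeq2, -0.007419 with its size factors, -0.002931 without a filter, -0.0384 without the replicate block, -0.258 thinned, -0.0220 without those 2 libraries and -0.001782 after subtraction of other lines' reads. In that contrast ABCA1 was -0.0387 with limma-voom and -0.185 without the replicate block, and SMPDL3A was -0.373 thinned and -0.247 without those 2 libraries. Leaving out 1 library at a time gave -0.133 to 0.0904 for NR1H2 with pioglitazone, -0.296 to 0.109 for NR1H3 and -0.0693 to 0.125 for LPCAT3 with darglitazone, and -0.0542 to 0.262 for NR1H3 with both drugs. Between the drugs it gave -0.259 to 0.585 for ABCA1, -0.168 to 0.186 for MYLIP and -0.357 to 2.21 for SMPDL3A. Line pairs called for NR1H3 went to 2 and for ABCA1 to 5 without the filter, and for SMPDL3A to 1 when thinned. NR1H3-201 was 33.9% of coding counts against 19.1% of all. The cause of these shifts was not tested.

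The genes called over all genes moved more: with pioglitazone 223 without the filter, 82 thinned, 74 with DESeq2 and 9 without the MOLM-14 pioglitazone library, against 0; with darglitazone 76, 5 thinned and 6 with DESeq2. Without the filter ABCA1 with both drugs had an adjusted p of 0.0505 by edgeR, and over its alternatives no adjusted p was lower. Low counts limit ABCG1 in every library, the deepest included, and SMPDL3A in MV4-11 and KG-1a. Depth limits all members in the OCI-AML3 pioglitazone library, where NR1H2 had 32 counts, MYLIP 15 and ABCA1 5.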

Other observations

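The set did not vary as one block over the 12 libraries. On log2 CPM with a prior count of 2, NR1H2 ran closest to MYLIP (Pearson r = 0.91) and ABCA1 (0.89), while NR1H3 ran with LPCAT3 (0.80) and had r = 0.14 with ABCA1. SMPDL3A and LPCAT3 had r = -0.93, where SMPDL3A had 0 counts in every KG-1a library and in MV4-11 with pioglitazone. These are descriptions of 12 libraries that share 4 lines, so they mostly restate the line levels.

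The protein-coding genes most like each member were UBXN6, RPS6KA2 and SIRT2 for NR1H2 (0.98, 0.98 and 0.97), and THYN1, WASHC3 and PRKACB for NR1H3 (each 0.96). For ABCA1 they were ZNF526 and EMP3 (each 0.93) and ENDOV (0.92), and for MYLIP TICAM1 (0.97), PLAU (0.96) and ANKLE2 (0.95). LPCAT3 was most like RAB2B, INPP5B and RNF19A (each 0.90), and SMPDL3A most like MRPL14 (0.97), NUP188 and SLC29A1 (each 0.96). No member was among the 3 genes most like another member, of 10579 genes compared (10580 for SMPDL3A). SMPDL3A and ABCG1 were too low to be among the genes compared, so neither could appear.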
